A study of Mus musculus with 4 samples.

Results

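The genes described here are 8 transcription factors and 2 cell adhesion molecules that mark mesenchymal cells: Snai1, Snai2, Twist1, Twist2, Zeb1, Zeb2, Prrx1, Foxc2, Cdh2 and Cdh11. They were chosen by name, and every probe set that the platform annotation assigns to one of them was taken, which gave 15 of the 22626 probe sets other than controls on the array and 10 of 12393 genes. RNA came from mouse CH10T1/2 fibroblasts, a mouse embryo line with the potential to form skeletal tissue, fat and muscle, and was hybridised to 4 Affymetrix Mouse Genome 430A 2.0 arrays. All cells carried a stably transfected PTHR1, the receptor for PTH and PTHrP, either as its R150C variant known from enchondromas (benign cartilage tumours) or as the wild type, and all spent a night without serum. The 4 groups, with 1 array each, were the R150C line given 1e-07 M PTHrP for 1 h, the R150C line given carrier, the WT line given PTHrP in the same way, and the WT line as control. The control array of the WT line has no carrier in its own label. The series text names carrier for it. Each receptor is represented by 1 transfected line, so receptor and line cannot be told apart.

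Snail, Twist and Zeb factors are repressors and activators best known from the epithelial-mesenchymal transition, in which cells lose E-cadherin and the other junction proteins of epithelia and become migratory. In fibroblasts and in limb mesenchyme the same factors are part of the normal state. Snail proteins (Snai1, Snai2) are zinc finger repressors that bind E-boxes, Zeb proteins bind similar E-boxes through a zinc finger cluster at each end, and Twist proteins are basic helix-loop-helix factors that pair with E proteins. Prrx1 is a homeodomain factor of limb mesenchyme, Foxc2 a forkhead factor of mesenchyme, cartilage precursors and lymphatic vessels, Cdh2 is N-cadherin and Cdh11 a cadherin of osteoblasts and other mesenchymal cells.

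Of these genes Snai1 and Foxc2 were more than 2-fold higher in the R150C line in both media, and Twist1 and Twist2 were higher by about the same smaller step. Zeb1 lay higher without passing the test, the cadherins and Prrx1 did not pass in either direction, and Snai2 and Zeb2 were too dim to be tested. After 1 h of PTHrP none of the genes passed the test.

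Each probe set has a deposited fluorescence intensity, on a linear scale, and is described below by this signal. The mean signal after trimming 2% at each end was 150.06 on every array, so the arrays carry a global scaling, and the median signal ran from 44.7 to 52.2. The ratio of the 3' to the 5' Gapdh control probe set was 1.213 and 0.991 in the R150C line (PTHrP, carrier), against 1.171 and 0.845 in the WT line (PTHrP, control). Differences are on the scale log2(signal + 16), which understates the change of dim genes. They were taken after each array was centred on its median over the 6197 genes kept by a filter on dim genes, which lies at a signal of 62.6, a mean on that log scale turned back to signal. Where a gene has several probe sets, the brightest stands for it in the fit.

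With 1 array per group, a difference between 2 arrays has no replicate error of its own. How far the 4 arrays of each kept gene departed from additivity gave a spread of 0.25 (SD, log2) for such a difference. The line effect, R150C minus WT over both media, was tested with limma's additive model of line and PTHrP, which has 1 residual degree of freedom, and a gene is called higher or lower only where its Benjamini-Hochberg adjusted p over all kept genes was under 0.05 under each of 4 scalings. The largest of the 4 adjusted p-values is given below, beside the difference from the centring just described. limma moderates each gene's spread with the spread pooled over all kept genes. In the main scaling the pooled part weighed as 9.68 degrees of freedom, against 1 from the gene itself. These p-values measure only the spread between these 4 arrays, mostly pooled over genes. An exact permutation test of 2 arrays against 2 cannot give a two-sided p below 0.333, so it was not used.

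RefSeq's promoter table (build GRCm38.p6) has a window for 5 of the 10 genes, namely Snai1, Twist1, Twist2, Prrx1 and Zeb2. The 250 bases before the annotated start are printed for the 3 of them that were called. They lie at chr2:167537945-167538194 (Snai1), chr12:33957421-33957670 (Twist1) and chr1:91801211-91801460 (Twist2), all on the plus strand, and are written 5′ to 3′. Capitals mark the E-box CAGGTG (reverse complement CACCTG) that Snail and Zeb proteins bind, and the CCAAT box (reverse complement ATTGG).
Snai1: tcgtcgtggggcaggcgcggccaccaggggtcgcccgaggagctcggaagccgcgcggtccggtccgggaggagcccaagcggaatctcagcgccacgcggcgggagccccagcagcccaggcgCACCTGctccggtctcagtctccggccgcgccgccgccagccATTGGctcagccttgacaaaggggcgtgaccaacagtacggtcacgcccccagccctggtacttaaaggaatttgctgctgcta
Twist1: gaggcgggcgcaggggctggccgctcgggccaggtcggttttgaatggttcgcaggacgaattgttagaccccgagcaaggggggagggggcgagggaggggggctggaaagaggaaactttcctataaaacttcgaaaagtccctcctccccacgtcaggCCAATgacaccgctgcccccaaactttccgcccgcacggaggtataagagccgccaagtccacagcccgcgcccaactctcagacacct
Twist2: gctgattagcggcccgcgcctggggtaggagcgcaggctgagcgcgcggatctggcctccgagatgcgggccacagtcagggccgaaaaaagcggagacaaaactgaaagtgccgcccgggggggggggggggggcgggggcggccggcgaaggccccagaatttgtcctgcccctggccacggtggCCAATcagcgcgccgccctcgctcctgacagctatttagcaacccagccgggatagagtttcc

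The Snail and Zeb E-box stood once in the Snai1 window, 126 bases before the start, and in neither Twist window. It occurs in 17.2% of 32851 promoter windows of the same length. The CCAAT box stood once in each of the 3 windows, 84 bases before the start in Snai1, 89 in Twist1 and 63 in Twist2. It occurs in 33.8% of all windows. This motif was searched for after the 3 sequences had been read, so its presence in them is no test. The Prrx1 window did not hold it. A single Zeb2 window held it, at 2 sites, and the other Zeb2 windows did not. None of the 3 held the AP-1 motif TGANTCA (6.75% of all windows), the CRE TGACGTCA (1.55%) or the Gli motif GACCACCCA (0.225%), each searched on both strands. A Zeb2 window held the AP-1 motif at 2 sites. The general E-box CANNTG, which includes the one above, was present in 66.2% of all windows and, of the 3, in that of Snai1 alone. The GC content was 70.0% in Snai1, 62.4% in Twist1 and 68.8% in Twist2, against a median of 52.4% over all windows. It was 47.6% in Prrx1 and from 49.6% to 57.6% in the Zeb2 windows. A match here is a description of letters in a window.

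Snai1 encodes the Snail repressor of E-cadherin. Its probe set 1448742_at read 491.2 (PTHrP) and 470.6 (carrier) in the R150C line, against 164.1 (PTHrP) and 178.7 (control) in the WT line. Both R150C arrays lay far above both WT arrays, with a ratio of 2.99 under PTHrP and 2.63 without it. On the log2 scale the line difference was 1.47 under PTHrP and 1.29 in carrier or control. The line effect over both media was 1.38 (SE 0.15, limma, largest adjusted p 0.000597), above 99.0% of the kept genes. The relative Snai2, or Slug, is a repressor that acts in neural crest and limb cells. It read 40.3 and 28.8 in the R150C line (PTHrP, carrier), against 46.1 and 50.4 in the WT line (PTHrP, control). All 4 values lay under the filter level, so Snai2 was not tested. Both R150C values were the lower ones, at a signal where the lines are not compared here.

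Twist1, needed for limb bud and cranial mesenchyme, read 197.3 and 166.5 in the R150C line (PTHrP, carrier), against 133.3 and 99.9 in the WT line (PTHrP, control). Its close relative Twist2 (Dermo1), a factor of dermal and bone precursor cells, read 212.1 and 181.2 in the R150C line, against 147.0 and 105.3 in the WT line, in the same order. In both genes the R150C arrays lay above both WT arrays, and within each line the PTHrP array was the higher one. The line effect was 0.56 for Twist1 (SE 0.15, limma, largest adjusted p 0.0409) and 0.57 for Twist2 (SE 0.15, limma, largest adjusted p 0.043). These effects lay above 94.5% (Twist1) and 94.7% (Twist2) of the kept genes, beside 93.4% for Zeb1, which was not called. The line difference was 0.49 and 0.46 under PTHrP and 0.62 and 0.67 in carrier or control, for Twist1 and Twist2. Probe sequences were not used here, and whether either probe set also takes up RNA of the other gene was not tested. Their calls lie close to the threshold and were lost with a pseudocount of 1, where the largest adjusted p was 0.051 for Twist1 and 0.0557 for Twist2 by limma.

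Zeb1, a repressor of E-cadherin and of the epithelial microRNA-200 genes, has 2 probe sets. The brighter read 414.4 and 438.6 in the R150C line (PTHrP, carrier), against 292.7 and 288.2 in the WT line (PTHrP, control). The other, near the floor of the array, read 19.5 and 16.2 in the R150C line, against 8.1 and 8.6 in the WT line. Both probe sets had the R150C arrays above the WT arrays, with line differences over both media of 0.50 and 0.45. By limma the largest adjusted p was 0.0687, so Zeb1 was not called. It was 0.027 on the deposited values without centring, 0.0275 with centring on all probe sets and 0.0576 in the main scaling. Zeb2, the other member of the family, read 20.0 and 35.2 in the R150C line, against 18.7 and 20.8 in the WT line. It lay under the filter level and was not tested, and its higher value was that of a single array, R150C with carrier.

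Foxc2 (probe set 1416693_at) read 845.7 and 645.2 in the R150C line (PTHrP, carrier), against 263.8 and 278.8 in the WT line (PTHrP, control). The ratio of the lines was 3.21 under PTHrP and 2.31 without it, and the log2 differences were 1.60 and 1.13. The line effect was 1.37 (SE 0.16, limma, largest adjusted p 0.00115), above 99.0% of the kept genes. Its close relative Foxc1, which shares much of its function in the embryo, had the opposite order. Foxc1 read 187.9 and 153.1 in the R150C line, against 270.4 and 330.5 in the WT line, a line effect of -0.79 (SE 0.17, limma, largest adjusted p 0.0241).

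Prrx1 has 4 probe sets. The brightest, 1425528_at, read 1122.5 and 1237.9 in the R150C line (PTHrP, carrier), against 1614.0 and 1608.0 in the WT line (PTHrP, control), with no overlap between the lines. A second, made for another transcript record, read 356.6 and 333.4 in the R150C line, against 397.2 and 485.7 in the WT line. The remaining 2 set a single array apart. The probe set 1425526_a_at read 104.7 and 106.4 in the R150C line, against 105.6 and 195.9 in the WT line. The last, 1425527_at, read 179.1 and 208.4 in the R150C line, against 184.1 and 319.8 in the WT line, so the WT control array was the high one in both. Over both media the line differences of the 4 probe sets were -0.47, -0.36, -0.43 and -0.34, all on the same side. By limma the brightest, with a line effect of -0.47 (SE 0.15), had a largest adjusted p of 0.157 and was not called.

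N-cadherin (Cdh2), the adhesion molecule that replaces E-cadherin in mesenchymal cells, has 2 probe sets. The brighter read 660.5 and 551.8 in the R150C line (PTHrP, carrier), against 802.1 and 581.0 in the WT line (PTHrP, control). The other read 506.6 and 576.0 in the R150C line, against 508.6 and 525.8 in the WT line. The lines overlapped in both, and the line differences over both media were -0.20 and 0.03, of opposite sign. Cdh11 (1450757_at) read 755.8 and 594.6 in the R150C line, against 790.8 and 900.3 in the WT line. The lines did not overlap, but nearly touched under PTHrP, where the line difference was -0.08, against -0.62 in carrier or control. By limma the line effect was -0.20 (SE 0.15, largest adjusted p 0.739) for Cdh2 and -0.35 (SE 0.17, largest adjusted p 0.379) for Cdh11.

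**Figure D1:**
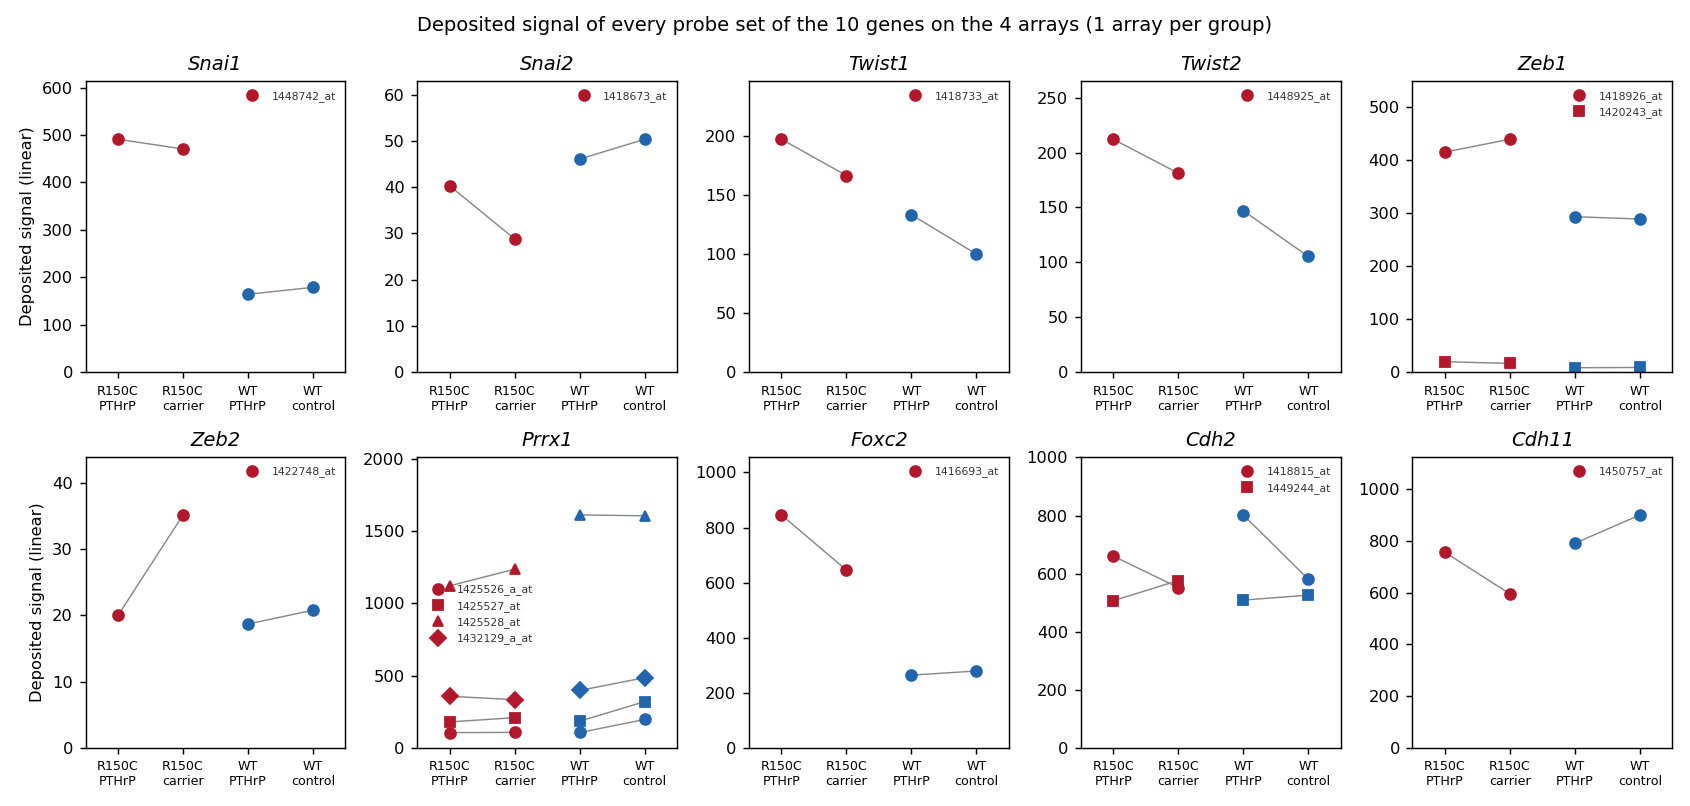
Deposited signal (linear, from 0) of all 15 probe sets of the 10 genes on the 4 arrays, 1 panel per gene, with the R150C line in red left of the WT line in blue, PTHrP left of carrier or control in each line, and a marker shape per probe set. Snai1 stands at 491.2 and 470.6 in the R150C line against 164.1 and 178.7 in the WT line, while the lines overlap in Cdh2.

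Among the 8 genes that entered the fit, 4 were called higher (Snai1, Foxc2, Twist1, Twist2), 0 lower and 4 were not called. Over all 6197 kept genes 5.20% were called higher and 2.94% lower by the same limma rule. The genes described here were chosen with earlier results of these data known, which named Snai1, Twist1 and Twist2. Their counts and median beside those of all kept genes are therefore no test of the set. The median line effect of the 8 was 0.53, beside -0.06 over all kept genes. By deposited signal both R150C arrays lay above both WT arrays in 5 of the 8, where 24.8% of the kept genes did, and below both in 2 of the 8, where 29.2% did. A difference of at least 2-fold in both media was found in 2 of the 8, Snai1 and Foxc2. Counted in each medium by itself, a rise of that size in the R150C line was seen in 2.16% of the kept genes under PTHrP and 2.03% in carrier or control. The share of kept genes with it in both media at once was not computed. With no filter on dim genes limma called 54 genes higher in all. Snai1 was among them, just under the threshold (largest adjusted p 0.0496), while Foxc2 (0.0676), Twist1 (0.223) and Twist2 (0.228) were not called.

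**Figure D2:**
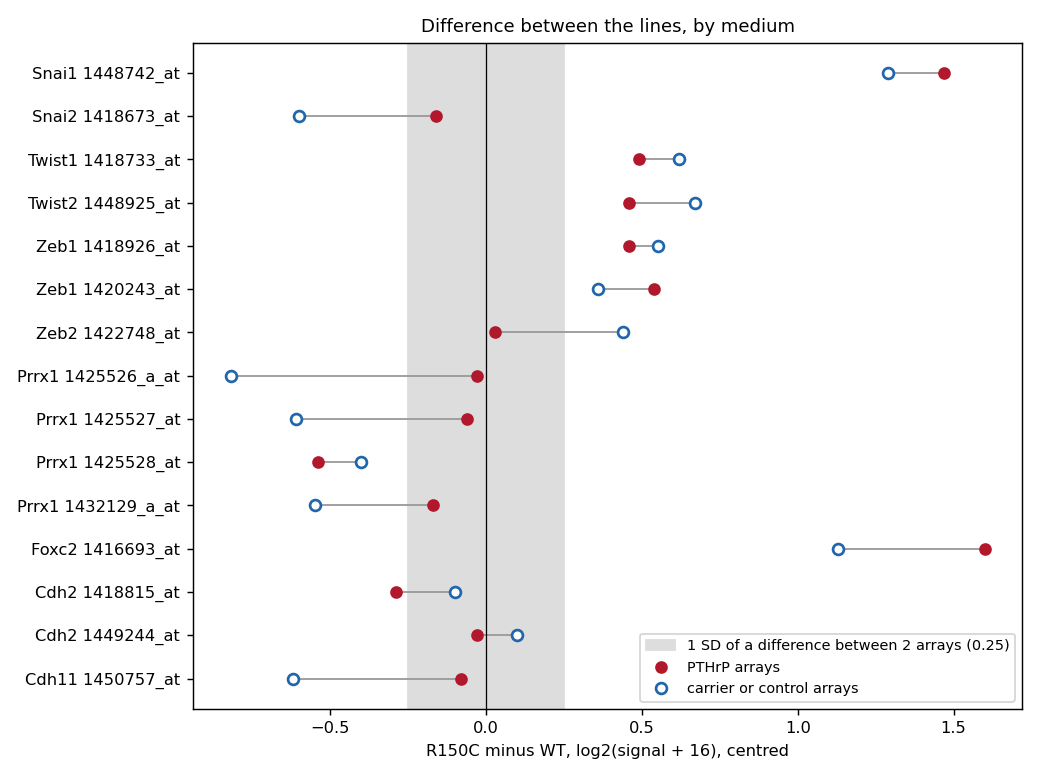
Difference between the lines, R150C minus WT on the log2(signal + 16) scale after centring, for each of the 15 probe sets, with filled red points for the PTHrP arrays and open blue points for the carrier or control arrays. The grey band is 1 SD of a difference between 2 arrays (0.25), and Snai1 and Foxc2 lie between 1.13 and 1.60 in both media.

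**Figure D3:**
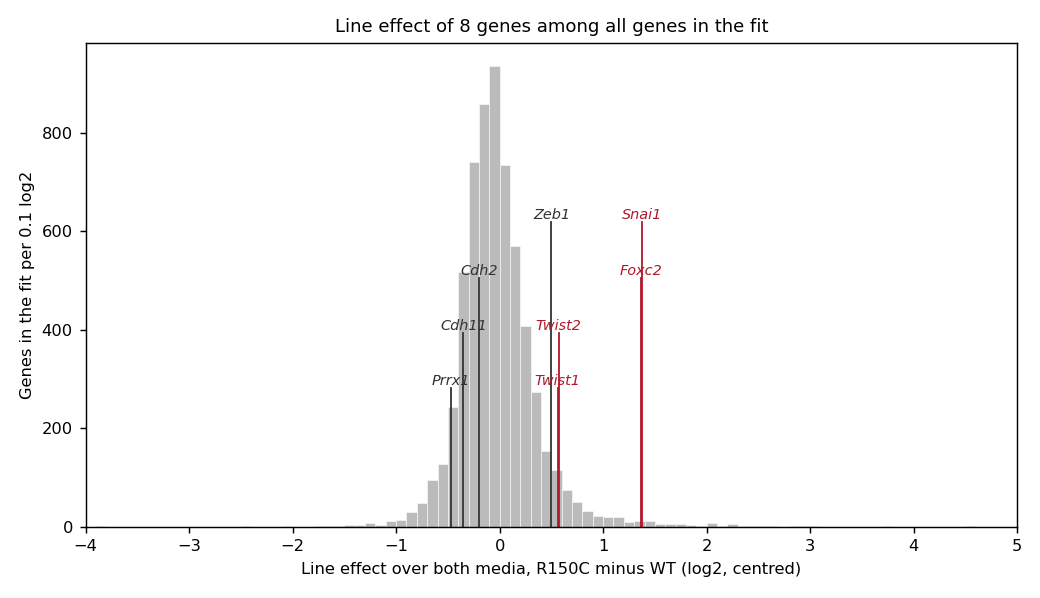
Number of kept genes (vertical axis) by line effect over both media (horizontal axis, log2, bins of 0.1), with vertical lines at the 8 tested genes, red where called higher, and heights of the lines chosen only to set the names apart. Snai1 (1.38) and Foxc2 (1.37) stand in the upper tail, and Cdh11 (-0.35) and Cdh2 (-0.20) in the bulk. Prrx1 (-0.47) stands toward the lower end, above 6.3% of the kept genes.

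PTHrP activates Gs and cAMP through this receptor, and the 1 h samples address its early response. For Snai1 the difference after PTHrP was 0.05 in the R150C line and -0.13 in the WT line, and for the brighter Zeb1 probe set -0.09 in the R150C line and 0.00 in the WT line. Twist1 differed by 0.22 in the R150C line and 0.35 in the WT line, and Twist2 by 0.20 in the R150C line and 0.41 in the WT line. These 2 genes and the brighter Cdh2 probe set, at 0.24 and 0.43, were the 3 of 15 probe sets above 0 in both lines, whereas the other Cdh2 probe set was at -0.19 and -0.07. Foxc2 was at 0.37 in the R150C line and -0.09 in the WT line, and Cdh11 at 0.33 in the R150C line and -0.20 in the WT line. The dim genes were at 0.32 and -0.12 (Snai2) and at -0.52 and -0.10 (Zeb2), R150C and WT line in turn.

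The widest differences after PTHrP among the 15 probe sets were those of the 2 Prrx1 probe sets named above, at -0.03 and -0.21 in the R150C line, against -0.82 and -0.77 with the WT receptor. The brightest Prrx1 probe set was at -0.15 in the R150C line and -0.01 in the WT line, and the fourth, 1432129_a_at, at 0.08 in the R150C line and -0.30 in the WT line. With the mean of the 4 probe sets in place of the brightest, the Prrx1 difference in the WT line was -0.41. No probe set reached 2-fold in either line. Of all kept genes, 0.129% reached 2-fold upwards and 0.0161% downwards after PTHrP in the R150C line. The shares for WT cells were 0.0968% upwards and 0.290% downwards. By limma, 0 of the 8 genes were called for PTHrP over both lines, and 1 of them, Cdh2, had an unadjusted p under 0.05. Over all kept genes 0.00% were called, with 345 genes at an unadjusted p under 0.05. The effect over both lines was 0.28 for Twist1, 0.30 for Twist2 and 0.34 for Cdh2 (SE 0.15 each), with largest adjusted p of 0.915, 0.915 and 0.900 by limma. The Gapdh 3' to 5' ratio was higher in both PTHrP arrays than in the other 2, and its part in these differences was not tested.

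**Figure D4:**
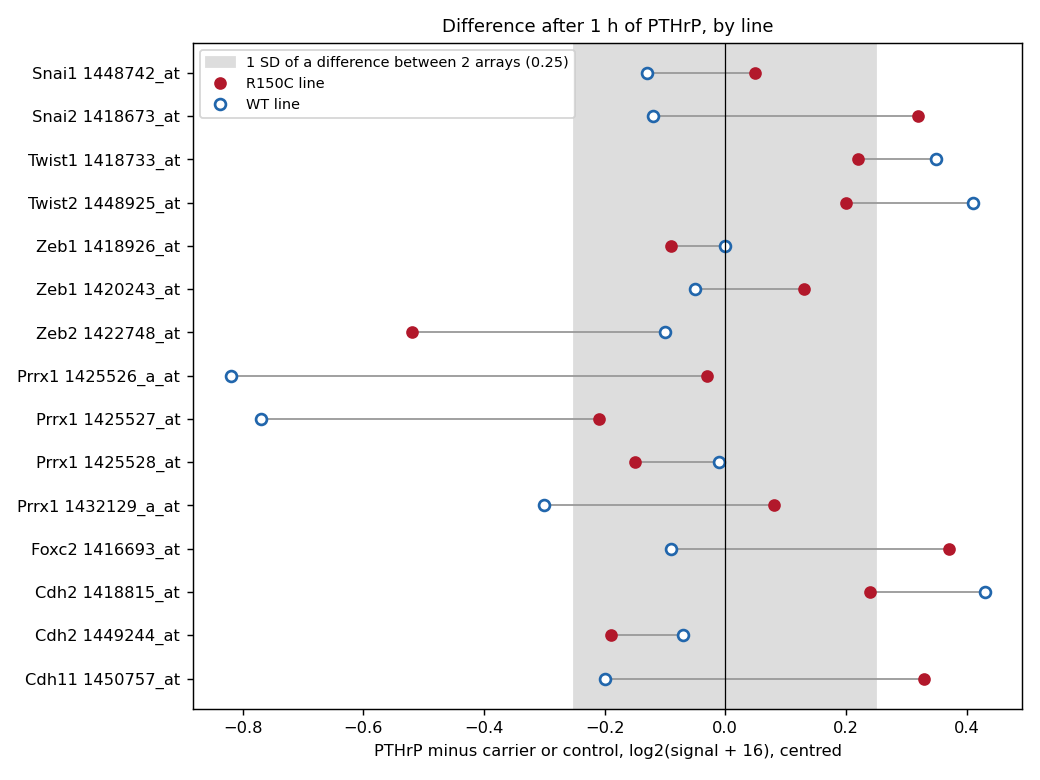
Difference after 1 h of PTHrP, PTHrP minus carrier or control on the log2(signal + 16) scale after centring, for each of the 15 probe sets, with filled red points for the R150C line and open blue points for the WT line. The grey band is 1 SD of a difference between 2 arrays (0.25), and 2 of the 4 Prrx1 probe sets lie at -0.82 and -0.77 in the WT line.

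Likeness of pattern was measured as the root mean square distance between values centred on each gene over the 4 arrays. The gene nearest to Twist1 among all others in the fit was Twist2, at a distance of 0.023, where the median over all genes was 0.364. Myl6 (0.038) and Rabgef1 (0.048) followed. Nearest to Snai1 were Ch25h (0.036), Ctdp1 (0.057) and Ccn4 (0.057). The median distance from Snai1 over all genes was 0.733, and Foxc2 ranked 18 for it with 0.115. The distance between Snai1 and Twist1 was 0.449, at which Twist1 ranked 358 for Snai1 but Snai1 ranked 4719 for Twist1. With 4 arrays these distances describe the arrays and carry no test.

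Around these genes, 8 further lists were read in the same fit. By the same limma rule 5.20% of all kept genes were called higher and 2.94% lower. The lists were fixed with earlier results of these data known, which named Smad7, Id1, Id2 and Dlx2. Their counts are therefore no test of a list. Of 12 tested other transcription factors of mesenchyme, 3 were called higher and 2 lower. The chromatin protein gene Hmga2, known as an inducer of Snail and Twist, read 2143.3 and 2150.4 in the R150C line, against 862.3 and 896.0 in the WT line, a line effect of 1.25 (limma, largest adjusted p 0.00093). The homeobox gene Dlx2 stood at 1.27 and Wwtr1, which encodes the co-activator TAZ and was named after its value was seen, at 0.60. Osr1, a zinc finger gene of connective tissue and kidney precursors, stood at -1.43, though its WT arrays differed widely, with 118.0 under PTHrP and 244.5 in control, against 55.4 and 54.3 in the R150C line. Both R150C values lay under the filter level, so Osr1 entered the fit only through its WT arrays. Foxc1 was the other lower gene. Without the filter on dim genes, none of this list was called in either direction.

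Among 6 tested E proteins and Id proteins, the Twist antagonist Id1 was called higher (1.09) and its relative Id2 lower (-1.0). Id1 read 733.6 and 623.2 in the R150C line, against 306.4 and 301.6 in the WT line, and Id2 read 59.7 and 48.0 in the R150C line, against 121.5 and 119.6 in the WT line. Both R150C values of Id2 lay under the filter level, so Id2 entered the fit only through its WT arrays. Of 23 corepressors and chromatin partners, such as the histone deacetylase and CtBP genes, limma called 0, with line effects from -0.45 to 0.40. Of 14 genes that control the turnover of Snail protein, the kinase gene Lats2 (0.84) was called higher and none lower.

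Of 9 tested other cadherins, catenins and nectins, Nectin3, a cell adhesion molecule, was called higher (0.56, limma, largest adjusted p 0.0477) and none lower. The Nectin3 call was lost with a pseudocount of 1 (largest adjusted p 0.0665 by limma) and without the filter (0.228). Of 36 mesenchymal effector genes 4 were called higher and 0 lower. These were Itga5, a subunit of the fibronectin receptor (2.07), the hyaluronan receptor gene Cd44 (1.12), the lysyl oxidase gene Loxl3 (0.87) and the matrix gene Tnc (0.72). Itga5 read 984.1 and 1323.3 in the R150C line, against 317.2 and 204.8 in the WT line. The median of the 36 was -0.07, close to that of all kept genes.

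TGF-beta signals are known inducers of Snail, Twist and Zeb genes. Of 17 tested genes of that pathway 6 were called higher and 0 lower, with a median of 0.30. Among all kept genes 5.20% were called higher. Earlier results of these data had named Smad7 before the list was fixed, so the count is no test of the pathway. The 4 with the largest line effect were Smad7 (2.41), Inhba (2.21), Skil (1.90) and Tgif1 (1.37). Smad7, Skil and Tgif1 encode inhibitors of the pathway, whereas Inhba encodes a subunit of activin, a ligand. Smad7 read 590.7 and 633.0 in the R150C line, against 75.8 and 130.9 in the WT line, and Inhba read 386.8 and 512.0 in the R150C line, against 69.3 and 95.7 in the WT line.

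**Figure D5:**
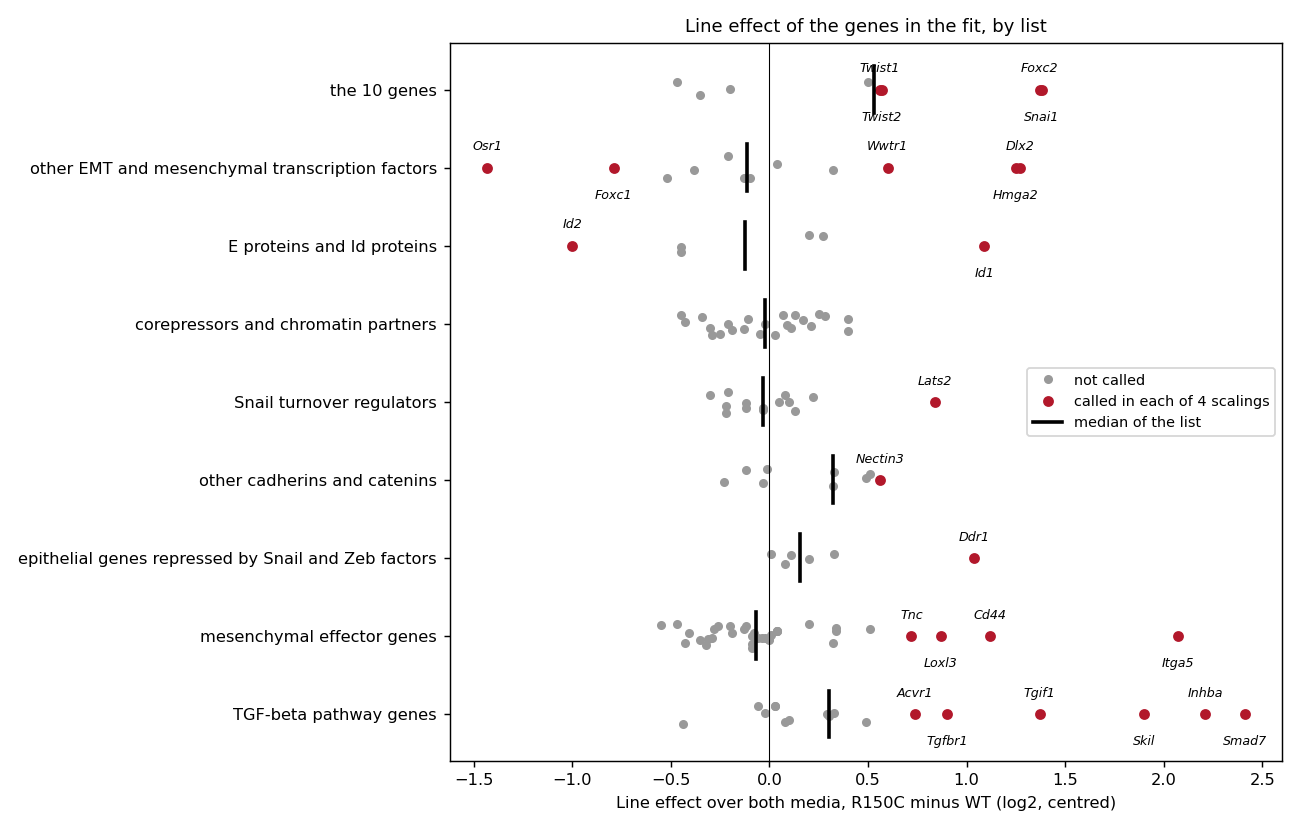
Line effect over both media (horizontal axis, R150C minus WT, log2) of each tested gene, by list, with red points and names for called genes, grey points for the others (spread vertically at random) and a black bar at the list's median. Called genes lie on both sides of 0 among other transcription factors and among E and Id proteins, and the TGF-beta pathway genes called all lie above 0, up to 2.41. The list labelled as epithelial genes repressed by Snail and Zeb factors is a general list, in which not every gene is a known target.

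Of 44 genes listed as epithelial, 37 lay under the filter level on every array and 6 entered the fit. Snail and Zeb proteins repress some of these genes, such as Cdh1, and not every listed gene is a known target. The E-cadherin gene Cdh1 read 7.0 and 12.8 in the R150C line, against 9.6 and 8.3 in the WT line, and Epcam read 3.5 and 2.0 in the R150C line, against 3.0 and 1.4 in the WT line. Ddr1, a collagen receptor counted among epithelial genes, was called higher, at 343.6 and 330.8 in the R150C line, against 180.3 and 129.8 in the WT line (line effect 1.04, limma, largest adjusted p 0.00545). Pkp1, which encodes the desmosome protein plakophilin 1, read 119.8 and 123.0 in the R150C line, against 24.5 and 12.4 in the WT line, and its mean fell below the filter. Without the filter limma called Pkp1 higher (2.04, largest adjusted p 0.046), and Ddr1 was not called (1.08, largest adjusted p 0.119). Pkp1, Cdh1 and Epcam were named outside the rule for naming genes, Pkp1 after its values were seen.

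Of 12 fibroblast markers 9 entered the fit and none was called, with a summed signal of 31398.6 and 33931.4 in the R150C line, against 40675.8 and 36175.6 in the WT line. Dcn, Lum and Fap were the 3 below the filter. Summed signals of 12 epithelial markers were 224.7 and 298.4 in the R150C line, against 194.2 and 235.8 in the WT line, and 11 of the 12 stayed under the filter level on every array. For 10 endothelial markers the sums were 232.6 and 293.8 in the R150C line, against 178.1 and 201.1 in the WT line. Macrophage markers (10) summed to 389.4 and 421.8 in the R150C line, against 330.6 and 433.6 in the WT line, and 7 neural crest and glia markers to 171.6 and 181.3 in the R150C line, against 145.4 and 106.1 in the WT line. No marker was at 0, and the lowest read 0.6. In RNA of whole cultures, fewer cells of a type and less RNA per cell cannot be told apart.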

How the data were processed

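Total RNA was labelled with biotin and hybridised to 1 array per group, per the labels. The deposited intensity of each probe set is the authors' value on a linear scale made with software that the submitters' processing notes name as Affymetrix Expression Console. For the software's version and its way of summarising probes, the sources used here give nothing.

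Of 22690 probe sets, 64 were controls and 20380 of the others had 1 gene symbol. The Entrez identifiers of 20351 of those were found in RefSeq, whose gene symbol was then used. Differences use log2(signal + 16). The brightest probe set stood for a gene, and genes with a mean at or above the median over 12393 genes were kept. limma 3.58.1 in R 4.3.3 fitted line and PTHrP over 4 arrays without an interaction. The 4 scalings were centring on the kept genes (main), the deposited values, centring on all probe sets and quantile normalization. In simulated data with 1 spread for every gene, limma called 99 of 100 genes changed 2-fold and 59 of 100 changed 1.5-fold. Of 5997 unchanged genes it called 3. The spread of the real arrays differs between genes, so these shares need not hold for them.

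Members, lists and settings were chosen with earlier results of these data known, which named Snai1, Twist1, Twist2, Smad7, Id1, Id2 and Dlx2. All 10 members are named, and in each other list the called genes, at most 4 by size of the line effect, with the exceptions Wwtr1, Pkp1, Cdh1 and Epcam. If none was called, at most the gene of largest effect was to be named. Likeness was measured for Snai1 and Twist1. Alternatives were the pseudocount, the filter, the summary of probe sets, the scaling and limma's intensity trend. The number of arrays limits the precision.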

Additional observations from a re-analysis of the deposited data

Results flagged for a closer look

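Cdh11 differed in opposite directions after PTHrP, by 0.33 in the R150C line and -0.20 in the WT line (log2). The signs were the same under each of the 4 scalings, with -0.02 in the WT line when arrays were centred on all probe sets. There is 1 array per group and the difference between the lines was not tested. Over all kept genes, 48.9% had PTHrP differences of opposite sign in the 2 lines.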

How the results depend on the processing

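No paired analysis was possible because each group has 1 array and no shared replicate source. For the line effect limma called 322 genes higher and 182 lower. Without the filter these were 54 and 10, with a filter set at the 75th percentile 152 and 42, and with each probe set as its own row 4 and 0. With the deposited values alone, in place of a pass in all 4 scalings, 319 were lower, and with kept-gene centring alone, a setting chosen after seeing the data, 259. For PTHrP 0 were called, but 1 was higher with the deposited values alone, and 22 higher and 3 lower with centring on all probe sets alone. The cause was not tested. Every line effect of the 8 tested genes kept its sign under all settings run. Snai1 (1.19 to 1.47) lost its call with each probe set as its own row (adjusted p 0.127), as did Foxc2 (0.149), Twist1 (0.327) and Twist2 (0.33). Zeb1 passed with a pseudocount of 64 (0.0364), with limma's trend (0.0371) and under 2 single scalings, and Prrx1 with a pseudocount of 64 (0.041). The PTHrP effect, not called, changed sign for Snai1 to 0.02 without the filter and to 0.08 with each probe set as its own row or with centring on all probe sets. It did so for Zeb1 in the same settings, to 0.02, 0.08 and 0.08, and to 0.04 with the mean of its probe sets, and for Prrx1 to 0.04 in the last 2 of the 3. Dim genes such as Snai2 and Zeb2 were not compared.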
